A study of Mus musculus with 8 samples.

Results

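The angiopoietin-Tie and apelin tip cell genes described here comprised 10 of the 54532 Ensembl genes in the deposited tables: Apln, Aplnr, Angpt2, Tek, Tie1, Esm1, Pdgfb, Cxcr4, Cd34 and Unc5b. They were listed by name for their roles in sprouting vessels, with earlier results of these data known. RNA sequencing was carried out on primary brain microvascular endothelial cells of mice, the cells that line the small vessels of the brain. Of the 8 libraries, 4 were labelled wild type and 4 Cavb3 KO, numbered 1 to 4 in each group and described as independent biological replicates. Cavβ3, encoded by Cacnb3, is an auxiliary subunit of voltage-gated calcium channels, and the study asked what it does in endothelial cells. All cultures, of both genotypes, were kept in DMEM supplemented with heparin (100 ng/mL), fibroblast growth factor (10 ng/mL) and 20% fetal calf serum. The labels give neither the age nor the sex of the mice, nor the kind of allele behind the KO label.

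A growing vessel is led by a tip cell, which extends filopodia toward growth factors, while stalk cells behind it divide and form the lumen. Tip cells are known for high expression of secreted factors such as apelin, angiopoietin-2, ESM1 and PDGF-B. Angiopoietin-1, made mainly by cells around the vessel, activates the receptor TIE2 (Tek) and keeps endothelium quiescent, whereas angiopoietin-2, made by endothelial cells, acts on the same receptor as a context-dependent antagonist. Apelin acts through the G protein-coupled receptor APJ (Aplnr) and promotes vessel growth.

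Values are FPKM, reads scaled to exon length and library depth, so levels of different genes may be set side by side. The spacing of low values implied a scaling depth of 23491641 to 33813073 reads or fragments per library. The reads recovered per gene summed to 22883085 to 33568156, above that depth in some libraries and below it in others. In either group, replicates 1 and 2 differed from replicates 3 and 4. Ddx3y, a Y-linked gene, was at 6.98 to 9.48 FPKM in the former and at 0 in the latter, and each of these replicate sets held 2 libraries of each genotype. Cells with a Y chromosome were thus part of replicates 1 and 2, where Xist, an X-linked RNA, was also read (12.4 to 15.1 FPKM). The labels name no batch, so that further differences of origin, culture and handling cannot be told apart between the sets. Over all libraries Cacnb3 itself did not separate the labels: wild type held 2.26 ± 1.40 FPKM, and libraries labelled Cavb3 KO held 2.01 ± 0.352 FPKM (SD, n = 4 each). Within each replicate set it did, in opposite directions. In replicates 1 and 2, wild type (3.38 and 3.56 FPKM) lay above those labelled Cavb3 KO (1.70 and 2.09), a ratio of 0.546. The same order was seen there for 28.9% of all tested genes. In replicates 3 and 4 Cacnb3 ran against the label, with wild type (1.12 and 0.980 FPKM) below those labelled Cavb3 KO (2.47 and 1.77), a ratio of 2.02. The share of all tested genes in that order was not counted. The change of Cacnb3 between the sets, 1.23 ± 0.20 SE on the log2 scale, did not pass after adjustment (limma adjusted p = 0.335). The genotype is therefore given by label only, and each direction between the groups rests on that label. The 12 endothelial markers summed to 2228 to 3002 FPKM in wild type and 1943 to 2349 FPKM in libraries labelled Cavb3 KO, and all 11 that were tested had a negative log2 difference (median -0.29). Of these, Esam, a junction adhesion molecule, fell in a fit with the replicate set as a term (-0.38, limma adjusted p = 0.0404) and lost the call on blocking by replicate number (0.0902). Those of fibroblasts summed to 4.08 to 6.72 and 4.39 to 9.49 FPKM, and those of neurons and oligodendrocytes to 0.917 to 1.74 and 1.05 to 1.86 FPKM. Markers of pericytes and smooth muscle (12 genes) summed to 4.51 to 9.71 FPKM in wild type and 5.09 to 7.75 FPKM in libraries labelled Cavb3 KO. Those of leukocytes and microglia (10 genes) summed to 24.4 to 29.4 and 22.9 to 25.2 FPKM, with the defining leukocyte gene Ptprc at no more than 0.137 FPKM in any library. Choroid plexus and ependymal markers (8 genes) summed to 26.7 to 33.9 FPKM in wild type and 30.1 to 138 FPKM in libraries labelled Cavb3 KO, where Aqp1 alone reached 127 FPKM. Another of them, the chloride channel family gene Clic6, fell with the set term (-0.43, limma adjusted p = 0.0404, and 0.0902 on blocking). Astrocyte markers summed to 19.2 to 21.7 and 16.6 to 25.2 FPKM, lymphatic endothelial markers to 53.1 to 73.5 and 43.0 to 85.6 FPKM and hematopoietic progenitor markers to 44.9 to 64.8 and 47.7 to 61.7 FPKM. In each of these last 2 lists only 2 of 6 genes reached 1 FPKM in 4 or more libraries: Pdpn and Flt4, and Kit and Gata2. The part of these cell types in the results was not tested. In such bulk samples fewer endothelial cells and less RNA per cell cannot be told apart.

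RefSeq promoters (GRCm38.p6, 250 bases before to 50 after the transcription start) were found for 7 of the 10 genes: Apln, Tek, Tie1, Esm1, Cxcr4, Cd34 and Unc5b. Shown are those of Apln and Esm1, the secreted factors with large differences between libraries described below, and of Tie1 and Tek, the paired receptors, which varied less than these. Capitals mark GGAA, the core recognised by ETS factors, on either strand (TTCC where it lies on the other strand). Apln lies on the X chromosome (chrX:48034804-48035103, minus strand), Esm1 on chromosome 13 (chr13:113209409-113209708, plus strand), Tie1 on chromosome 4 (chr4:118489800-118490099, minus strand) and Tek on the same chromosome (chr4:94739039-94739338, plus strand).
Apln: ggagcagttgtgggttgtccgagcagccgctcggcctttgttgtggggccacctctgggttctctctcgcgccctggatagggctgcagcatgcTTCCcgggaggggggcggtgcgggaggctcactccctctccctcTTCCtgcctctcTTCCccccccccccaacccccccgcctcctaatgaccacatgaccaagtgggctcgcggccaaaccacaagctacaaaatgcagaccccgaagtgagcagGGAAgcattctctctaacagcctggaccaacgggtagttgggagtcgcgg
Esm1: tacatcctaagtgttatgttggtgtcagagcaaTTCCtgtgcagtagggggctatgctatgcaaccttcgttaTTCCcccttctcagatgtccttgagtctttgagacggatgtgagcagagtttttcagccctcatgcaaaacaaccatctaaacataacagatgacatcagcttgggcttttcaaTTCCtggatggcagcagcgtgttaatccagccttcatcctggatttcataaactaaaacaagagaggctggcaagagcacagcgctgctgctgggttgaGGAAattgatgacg
Tie1: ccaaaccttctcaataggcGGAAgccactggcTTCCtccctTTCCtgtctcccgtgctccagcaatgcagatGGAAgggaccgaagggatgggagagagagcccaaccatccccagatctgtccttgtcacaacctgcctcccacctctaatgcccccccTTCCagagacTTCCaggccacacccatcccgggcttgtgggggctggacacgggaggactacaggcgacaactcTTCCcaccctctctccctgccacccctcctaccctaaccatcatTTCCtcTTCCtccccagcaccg
Tek: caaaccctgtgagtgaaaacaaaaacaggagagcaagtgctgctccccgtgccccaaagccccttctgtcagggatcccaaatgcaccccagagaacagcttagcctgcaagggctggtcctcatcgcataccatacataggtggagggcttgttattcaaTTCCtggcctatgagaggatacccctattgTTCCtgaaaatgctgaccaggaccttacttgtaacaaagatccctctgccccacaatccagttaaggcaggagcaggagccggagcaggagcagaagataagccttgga
GGAA was found 9 times in the Tie1 window, 5 times in that of Cd34, 4 times each in those of Apln and Esm1, 2 times each in those of Tek and Unc5b and 1 time in that of Cxcr4. Most of the Tie1 window, placed by its RefSeq start, lies inside the span of the Ensembl gene (118471191 to 118490061). At least 1 match was present in 31532 of all 32851 promoters of this length, with a median of 3. TGGGAA, the letters of the Notch effector RBPJ, which contain GGAA, matched only in Tie1 among the 7 windows and in 25.6% of all promoters. The hypoxia response letters ACGTG (19.6% of all promoters) and the FOXO letters GTAAACA (3.65%) had no match in the 7 windows. TATAAA (13.6% of all promoters) matched only in Cxcr4, 2 times, both in the same stretch TTTATAAA, which reads alike on either strand. All letters were searched on both strands, and a match is a description of the sequence.

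The level of these genes spanned a wide range, with the ligand genes Apln and Angpt2 at the top by mean and their receptor genes Aplnr and Tek far below. In wild type the order of the means was Apln, Angpt2, Cd34, Tie1, Pdgfb, Cxcr4, Unc5b, Tek, Esm1 and Aplnr. The wild type ranges overlapped between Apln and Angpt2, and along the run Tie1, Pdgfb, Cxcr4 and Unc5b each overlapped the next. Tek overlapped Esm1, and the other neighbours in this order did not overlap. Genes that reached 1 FPKM in 4 or more libraries were tested, 11864 in all, and of these Apln ranked 25, Angpt2 46 and Cd34 72 by mean level. Of the 10 genes, 9 were among these tested genes, each of them above 1 FPKM in every library, and Aplnr was not.

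**Figure D1:**
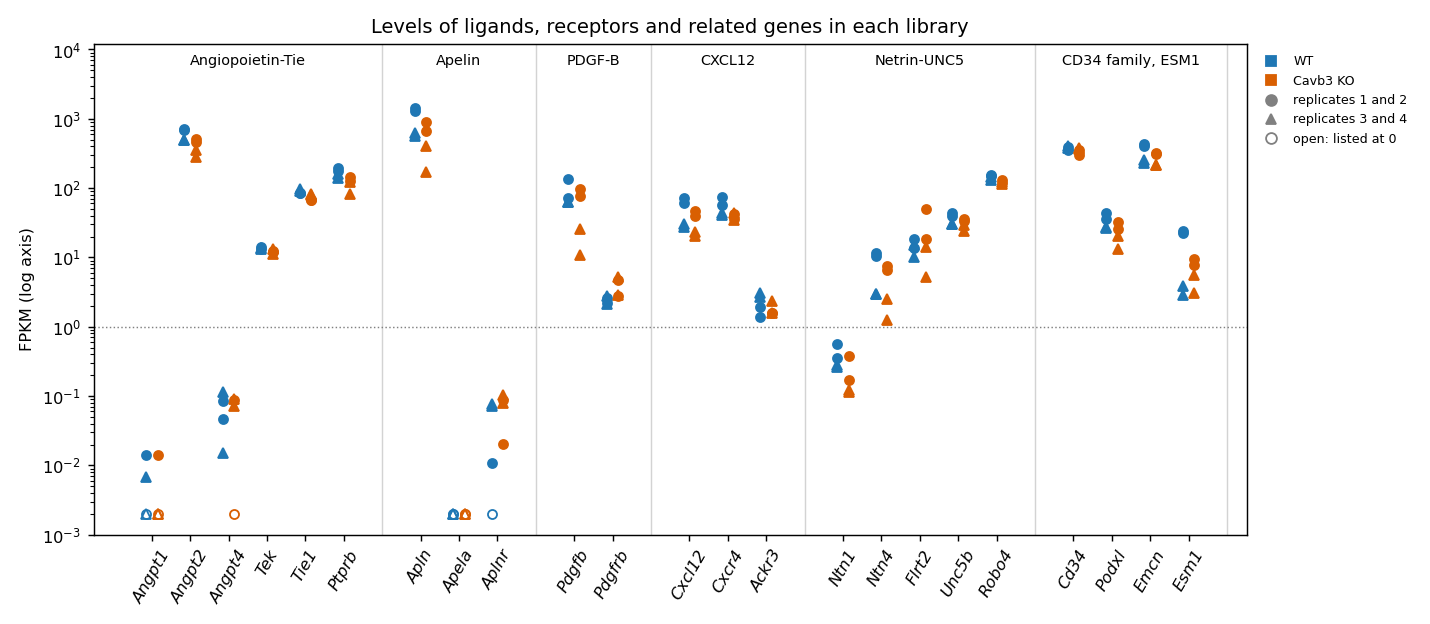
Level of each ligand, receptor and related gene in each of the 8 libraries, in FPKM on a log axis, with wild type in blue, libraries labelled Cavb3 KO in orange, and values listed at 0 drawn as open symbols at the bottom. Apln and Angpt2 lie at 170 FPKM or above in every library, while Aplnr, Angpt1 and Apela lie near or at 0 and the dotted line marks 1 FPKM.

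Apln encodes apelin, the secreted ligand of APJ (ENSMUSG00000037010, protein coding, chromosome X, 48025146 to 48034853, minus strand, GRCm38). Wild type replicates 1 to 4 held 1276, 1424, 627 and 566 FPKM. It was 658, 896, 402 and 170 FPKM in replicates 1 to 4 labelled Cavb3 KO. Over all 8 libraries the groups overlapped, yet within each replicate set both libraries labelled Cavb3 KO lay below both wild type libraries. The reads of this single gene made up 0.0536% to 0.448% of a library's scaling depth. The mean ratio of libraries labelled Cavb3 KO to wild type was 0.575 in replicates 1 and 2 and 0.480 in replicates 3 and 4. On the log2(FPKM + 1) scale the difference was -0.81 in the former and -1.18 in the latter. Over all libraries its 95% confidence interval ran from -2.22 to 0.23 (limma adjusted p = 0.896). With a term for the replicate set the interval was -1.59 to -0.41 (limma adjusted p = 0.0980), so that Apln passed in neither fit. Without replicate 4 labelled Cavb3 KO, the lowest library, the estimate of the fit without the set term was -0.53.

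The receptor of apelin was close to absent from the same libraries. Aplnr (ENSMUSG00000044338, chromosome 2, 85136225 to 85139923, plus strand) was at 0, 0.0108, 0.0760 and 0.0729 FPKM in wild type and at 0.0201, 0.0879, 0.103 and 0.0806 FPKM in libraries labelled Cavb3 KO. These values rested on 0 to 11 reads per library, and the 0 of wild type replicate 1 allows up to 0.0298 FPKM (3 reads; counting error only). The groups overlapped (p = 0.171 in an exact permutation test, two-sided, whose 70 splits allow no p below 0.0286). Apela, the gene of the other APJ ligand, had no read in any library, which allows up to 0.127 FPKM in the shallowest (3 reads; counting error only).

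Angpt2 encodes angiopoietin-2, the TIE2 ligand stored and released by endothelial cells (ENSMUSG00000031465, chromosome 8, 18690263 to 18741562, minus strand). Replicates 1 to 4 of wild type held 692, 722, 498 and 496 FPKM, and those labelled Cavb3 KO held 463, 517, 360 and 283 FPKM. Again the groups overlapped over all libraries and were separate within each replicate set. The ratio of means was 0.693 in replicates 1 and 2 and 0.648 in replicates 3 and 4. The comparison without a set term gave -0.58 (95% confidence interval -1.08 to -0.09, limma adjusted p = 0.827). With the replicate set as a term Angpt2 fell, by -0.58 ± 0.08 (SE, limma adjusted p = 0.0415), and it was the only one of the 9 tested genes to pass in that fit. In that fit 0.371% of all tested genes fell and 0.261% rose, 0.632% in all. Blocking on the replicate number left the estimate the same and lost the call (limma adjusted p = 0.0902). It was also lost on leaving out replicate 1 or 2 labelled Cavb3 KO, or any of the wild type libraries, from the fit with the set term (limma adjusted p of 0.0734 to 0.176, estimates of -0.62 to -0.56). Angpt2 lies on the strand opposite to Mcph1, inside that gene and with 0 shared exon bases. Whether the counting used strand is not given in the sources used here. Mcph1, a gene of chromosome condensation and the DNA damage response, was at 12.8, 12.8, 10.6 and 9.49 FPKM in wild type and at 8.37, 8.95, 7.79 and 6.59 FPKM in libraries labelled Cavb3 KO. The groups of Mcph1 did not overlap, as was seen in the same direction for 2.50% of all tested genes. It fell with the set term (-0.47 ± 0.07 SE, limma adjusted p = 0.0404), a call lost on blocking by replicate number (0.0902). The part of Angpt2 transcripts in these reads was not tested.

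The other angiopoietins were barely detected. Angpt1, the activating TIE2 ligand, had 0 to 2 reads per library and Angpt4 had 0 to 7. Angiopoietin-2 was therefore the one angiopoietin transcript measured above 1 FPKM in these cultures.

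The receptors of the pathway varied less than the ligand. Tek encodes TIE2, the angiopoietin receptor kinase (ENSMUSG00000006386, chromosome 4, 94739289 to 94874976, plus strand). Its level was 14.0, 13.1, 13.8 and 13.2 FPKM in wild type and 12.2, 11.9, 13.3 and 11.2 FPKM in libraries labelled Cavb3 KO. Only replicate 3 labelled Cavb3 KO reached into the wild type range. The log2 difference was -0.15 (95% confidence interval -0.31 to 0.02, limma adjusted p = 0.895), and with the set term the adjusted p was 0.262. Tie1, which encodes a related receptor that pairs with TIE2 and modulates it (ENSMUSG00000033191, chromosome 4, 118471191 to 118490061, minus strand), was at 84.3, 85.2, 97.4 and 90.4 FPKM in wild type. It was at 66.5, 67.7, 83.0 and 79.4 FPKM in libraries labelled Cavb3 KO. Tie1 was the only one of the 9 tested genes whose groups did not overlap over all 8 libraries, as was seen in the same direction for 2.50% of all tested genes. The ratio of the means was 0.830, from 89.3 ± 6.03 FPKM in wild type to 74.2 ± 8.28 FPKM (SD, n = 4 each). The log2 difference was -0.27 (95% confidence interval -0.49 to -0.05, limma adjusted p = 0.797). With the set term it was -0.27 ± 0.05 SE and did not pass (limma adjusted p = 0.0636). Per length, Tie1 exceeded Tek 6.01- to 7.08-fold in wild type libraries and 5.47- to 7.11-fold in those labelled Cavb3 KO. Ptprb, which encodes VE-PTP, a phosphatase that dephosphorylates TIE2, was at 194, 176, 140 and 158 FPKM in wild type and at 126, 146, 123 and 82.0 FPKM in libraries labelled Cavb3 KO. Its groups overlapped, and its log2 difference of -0.50 did not pass (limma adjusted p = 0.822, and 0.0912 with the set term).

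**Figure D2:**
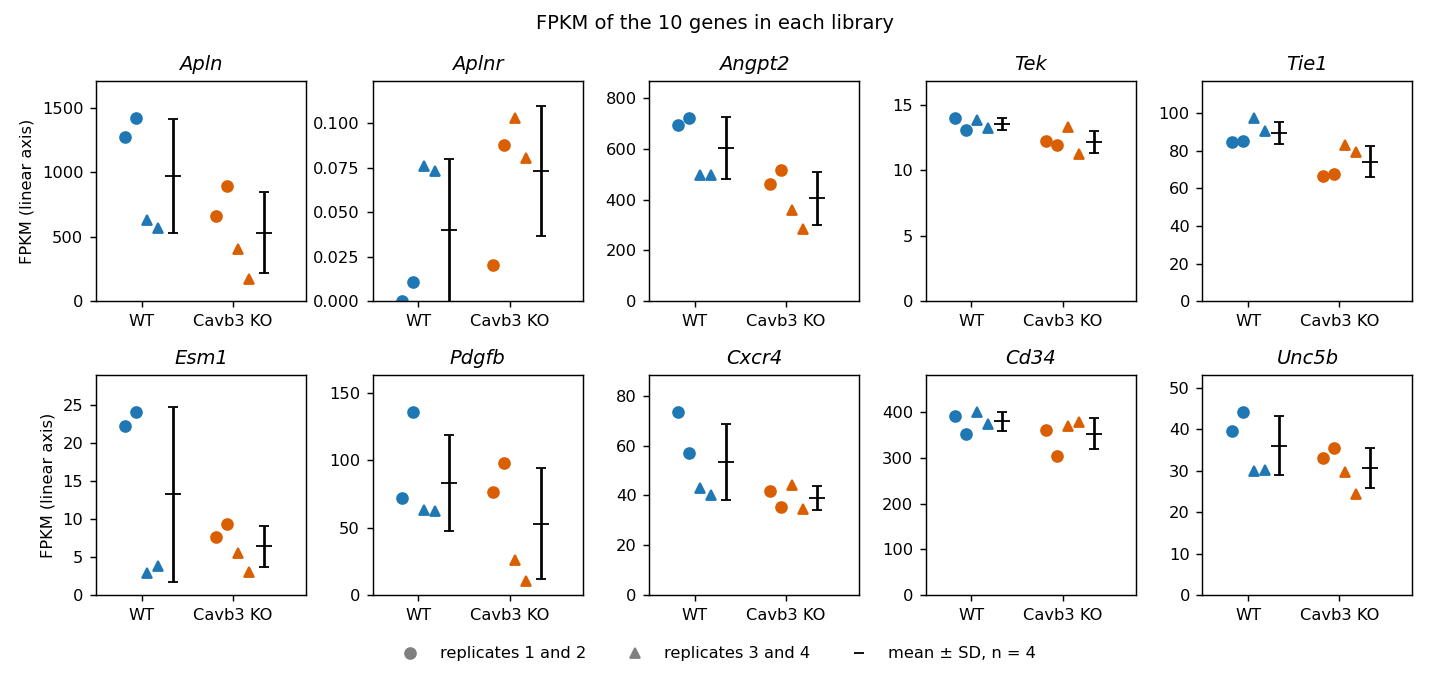
FPKM of each of the 10 genes in each library on linear axes from 0, with wild type in blue, libraries labelled Cavb3 KO in orange, circles for replicates 1 and 2, triangles for replicates 3 and 4, and bars for the mean ± SD (n = 4, cut at 0 for Aplnr). The 4 wild type values of Tie1, from 84.3 to 97.4 FPKM, all lie above those labelled Cavb3 KO. The circles of Apln, Angpt2, Esm1, Pdgfb and Unc5b lie above the triangles of the same genotype.

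Pdgfb encodes the PDGF-B chain, by which tip cells recruit pericytes (ENSMUSG00000000489, chromosome 15, 79995874 to 80014977, minus strand). The wild type replicates 1 to 4 held 71.6, 136, 62.7 and 62.4 FPKM. In replicates 1 to 4 labelled Cavb3 KO it was at 76.6, 97.7, 26.1 and 10.8 FPKM. The libraries labelled Cavb3 KO overlapped wild type in replicates 1 and 2 and lay below it in replicates 3 and 4, where the ratio of means was 0.295 against 0.842 in the former. The log2 difference was -1.01 (95% confidence interval -2.49 to 0.47, limma adjusted p = 0.925) and -0.43 without replicate 4 labelled Cavb3 KO. Its receptor gene Pdgfrb, a pericyte gene, was at 2.12 to 2.79 FPKM in wild type and at 2.80 to 5.24 FPKM in libraries labelled Cavb3 KO. The groups of Pdgfrb were apart only by the margin of 2.79 to 2.80 FPKM. The share of all tested genes without overlap in that direction was not counted. Its log2 difference of 0.48 did not pass (limma adjusted p = 0.832, and 0.205 with the set term). Pdgfa, the gene of the other classical PDGF chain, stayed at 0.669 to 2.92 FPKM over all libraries.

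Cxcr4 encodes the receptor of the chemokine CXCL12, which guides migrating endothelial cells (ENSMUSG00000045382, chromosome 1, 128588199 to 128592293, minus strand). Its level was 73.7, 57.2, 43.1 and 40.3 FPKM in wild type and 41.7, 35.3, 44.2 and 34.7 FPKM in libraries labelled Cavb3 KO. The groups were separate in replicates 1 and 2 and overlapped in replicates 3 and 4. The log2 difference was -0.42 (95% confidence interval -0.85 to 0.02, limma adjusted p = 0.890), and -0.25 without wild type replicate 1. Unlike apelin and its receptor, this ligand and receptor were expressed in the same cultures. Cxcl12 was at 60.2, 72.4, 30.3 and 27.7 FPKM in wild type and at 39.6, 46.7, 23.1 and 20.1 FPKM in libraries labelled Cavb3 KO, 0.523 to 1.32 times the level of Cxcr4 within a library. It was lower in libraries labelled Cavb3 KO within each replicate set, and its log2 difference of -0.51 did not pass (limma adjusted p = 0.928, and 0.0571 with the set term). Ackr3, the gene of the scavenging CXCL12 receptor, was at 1.40 to 3.09 FPKM.

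Unc5b encodes a netrin receptor that mediates repulsion in vessel guidance (ENSMUSG00000020099, chromosome 10, 60762593 to 60831581, minus strand). It was at 39.6, 44.3, 30.0 and 30.3 FPKM in wild type and at 33.1, 35.4, 29.7 and 24.4 FPKM in libraries labelled Cavb3 KO. Within each replicate set the libraries labelled Cavb3 KO were lower, in replicates 3 and 4 by a narrow margin. The log2 difference was -0.22 (95% confidence interval -0.59 to 0.15, limma adjusted p = 0.926, and 0.173 with the set term). Without wild type replicate 2, or without replicate 4 labelled Cavb3 KO, it was -0.12. Of its possible ligands, Ntn1 was at 0.115 to 0.568 FPKM and Ntn4 at 10.5, 11.4, 2.99 and 2.99 FPKM in wild type. Ntn4 was at 6.66, 7.45, 2.49 and 1.25 FPKM in libraries labelled Cavb3 KO, with a log2 difference of -0.54 (limma adjusted p = 0.949). Flrt2 was at 10.3 to 18.7 FPKM in wild type and at 5.27 to 49.6 FPKM in libraries labelled Cavb3 KO, the highest value being replicate 2. Robo4, an endothelial receptor that binds UNC5B, was at 131 to 153 FPKM in wild type and at 114 to 131 FPKM in libraries labelled Cavb3 KO. These did not overlap before rounding, as was seen in the same direction for 2.50% of all tested genes. The log2 difference of Robo4, -0.25, did not pass (limma adjusted p = 0.750, and 0.0911 with the set term).

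Esm1 and Cd34 are used as markers of sprouting endothelium. Esm1 encodes endocan, a secreted proteoglycan of tip cells (ENSMUSG00000042379, chromosome 13, 113209659 to 113218098, plus strand). The wild type replicates 1 to 4 held 22.3, 24.2, 2.86 and 3.84 FPKM of it, and those labelled Cavb3 KO held 7.70, 9.38, 5.59 and 3.11 FPKM. In replicates 1 and 2 the wild type libraries were far above those labelled Cavb3 KO (ratio of means 0.367), and in replicates 3 and 4 the groups overlapped (1.30). Fitted alone, replicates 1 and 2 gave a log2 difference of -1.35 (95% confidence interval -1.64 to -1.06, limma adjusted p = 0.115) and replicates 3 and 4 gave 0.27 (-0.39 to 0.92, limma adjusted p = 0.753). Over all libraries it was -0.54 (95% confidence interval -2.07 to 0.98, limma adjusted p = 0.959). The estimate was -0.15 or -0.11 without wild type replicate 1 or 2, -1.01 or -0.90 without wild type replicate 3 or 4 and -0.28 without replicate 4 labelled Cavb3 KO. Cd34, a sialomucin of endothelial and blood progenitor cells (ENSMUSG00000016494, chromosome 1, 194938819 to 194961279, plus strand), was nearly level. It was at 391, 352, 401 and 374 FPKM in wild type and at 360, 303, 369 and 379 FPKM in libraries labelled Cavb3 KO. Its log2 difference was -0.11 (95% confidence interval -0.33 to 0.11, limma adjusted p = 0.931), and -0.04 without replicate 2 labelled Cavb3 KO. Of its 7290 exon bases, 148 are shared with Gm16897 on the opposite strand. The sialomucins Podxl and Emcn, which share ligands or tissue with CD34, had log2 differences of -0.55 and -0.27 (limma adjusted p of 0.892 and 0.932). Podxl was at 26.3 to 43.1 FPKM in wild type and at 13.3 to 32.5 FPKM in libraries labelled Cavb3 KO, and Emcn at 233 to 427 and 216 to 319 FPKM.

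All 9 tested genes had a negative log2 difference between the labels, as did 55.8% of all tested genes and all 11 tested endothelial markers. Their median was -0.42, beside -0.02 over all tested genes and -0.29 over the endothelial markers, and it was -0.33 in replicates 1 and 2 and -0.16 in replicates 3 and 4. In the comparison without a set term none of the 9 passed limma's adjusted threshold of 0.05, and 0% of all tested genes did. Angpt2 and Tie1, both lower, reached an unadjusted limma value under 0.05, as 3.26% of all tested genes did in that direction and 5.45% in either. Limma-voom on recovered reads also called 0. Both libraries labelled Cavb3 KO lay below both wild type libraries for 7 of the 9 genes in replicates 1 and 2 (all but Pdgfb and Cd34) and for 28.9% of all tested genes. In replicates 3 and 4 this held for 5 of the 9 (Apln, Angpt2, Tie1, Pdgfb and Unc5b) and for 25.8% of all tested genes. It held in each of the replicate sets for Apln, Angpt2, Tie1 and Unc5b, and for 12.2% of all tested genes.

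**Figure D3:**
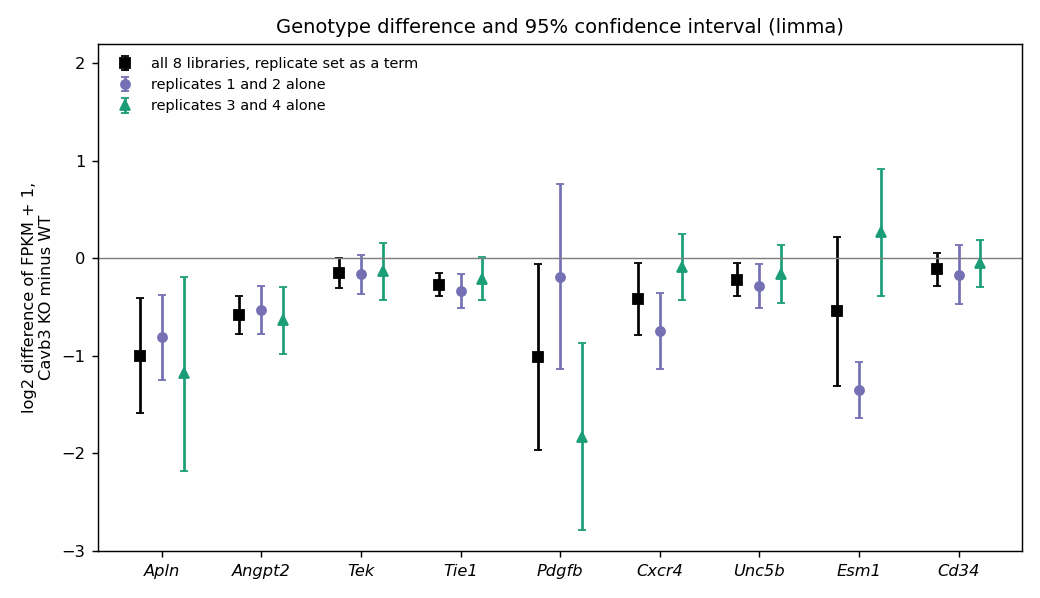
Log2 difference of FPKM + 1 between libraries labelled Cavb3 KO and wild type for the 9 tested genes, with 95% confidence intervals from limma, over all 8 libraries with the replicate set as a term (squares) and in each replicate set alone (circles and triangles). Estimates are below 0 for every gene except Esm1 in replicates 3 and 4, at 0.27, and the largest gap between the replicate sets is that of Pdgfb, from -0.19 to -1.83.

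Whether the genotype difference itself changed between the replicate sets was tested as an interaction in limma. None of the 9 passed, and 0.00843% of all tested genes did. Before adjustment, a limma value under 0.05 was reached by Esm1 (1.62 ± 0.32 SE, limma adjusted p = 0.343), Cxcr4 (0.65 ± 0.23, limma adjusted p = 0.713) and Pdgfb (-1.64 ± 0.60, limma adjusted p = 0.743), and by 6.20% of all tested genes. By estimate, Esm1 was lower in libraries labelled Cavb3 KO in replicates 1 and 2 (-1.35) and not in replicates 3 and 4 (0.27). The estimated deficit of Cxcr4 was the greater in replicates 1 and 2, and that of Pdgfb in replicates 3 and 4.

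More of these genes passed between the replicate sets than between the labelled genotypes. Of the 9 tested genes, 5 were lower and 1 was higher in replicates 3 and 4 relative to the others, beside 25.8% and 19.8% of all tested genes (limma adjusted p under 0.05, with genotype in the fit). The lower genes were the secreted factors Esm1 (-1.68 ± 0.33 SE, limma adjusted p = 0.00573), Pdgfb (-1.47 ± 0.41, limma adjusted p = 0.0219), Apln (-1.36 ± 0.25, limma adjusted p = 0.00471) and Angpt2 (-0.56 ± 0.08, limma adjusted p = 0.00206), and the receptor Unc5b (-0.40 ± 0.08, limma adjusted p = 0.00460). Tie1 was higher in replicates 3 and 4 (0.21 ± 0.05, limma adjusted p = 0.0134). Cxcr4 (-0.30, limma adjusted p = 0.157), Cd34 (0.12, 0.217) and Tek (0.00, 0.967) did not pass. For Pdgfb the call was lost without wild type replicate 2 (-1.45, limma adjusted p = 0.0579) and without replicate 1 (-1.37, 0.0578) or 2 (-1.24, 0.0673) labelled Cavb3 KO. Apln is X-linked, and Xist, the RNA that coats the inactive X, ranged from 28.3 to 43.3 FPKM in replicates 3 and 4 and from 12.4 to 15.1 FPKM in the other libraries. Its part in the Apln levels was not tested. Endothelial markers also moved with the replicate sets, 7 of 11 lower and 0 higher in replicates 3 and 4, with sums of 2306 to 3002 FPKM in replicates 1 and 2 and 1943 to 2362 FPKM in replicates 3 and 4.

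Genes linked to these factors were followed in lists chosen for their roles. Of the other tip cell genes, 25 of 28 were tested, with a median log2 difference of -0.34 and 23 negative values, beside -0.02 and 55.8% over all tested genes. None passed in the comparison without a set term. With the set term 1 of the 25 fell, Igfbp3, which binds insulin-like growth factors (-0.92 ± 0.12 SE, limma adjusted p = 0.0404), and its call was lost on blocking by replicate number (limma adjusted p = 0.0902). Igfbp3 was at 34.4, 35.5, 6.27 and 7.59 FPKM in wild type and at 17.0, 20.0, 3.90 and 2.41 FPKM in libraries labelled Cavb3 KO. The other large differences were those of Col4a2 (-0.78), a basement membrane collagen, Dll4 (-0.70), the Notch ligand of tip cells, and Pxdn (-0.61), a peroxidase that crosslinks collagen IV. Their adjusted p with the set term was 0.0912, 0.0676 and 0.0886 in limma. Of the 25, 18 were lower and 3 higher in replicates 3 and 4, beside 25.8% and 19.8% of all tested genes. Stalk and quiescent cell genes (11 of 13 tested) had a median of -0.25 with 9 negative values and 0 called, and the median was 0.02 in replicates 1 and 2 and -0.22 in replicates 3 and 4. Among them Aqp1, a water channel also listed as a choroid plexus marker, stood at 12.5 to 15.3 FPKM in wild type and at 51.1, 127, 29.0 and 15.3 FPKM in libraries labelled Cavb3 KO (log2 difference 1.48, limma adjusted p = 0.822). The Notch target Hey1 was at -0.69, the Notch ligand Jag1 at -0.36 and Notch1 at -0.34.

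In the lists of pathway partners the medians ran from -0.27 to 0.21. Angiopoietin-Tie partners (17 of 23 tested) had a median of -0.10. With the set term 1 of them rose, the kinase gene Akt2, by 0.36 ± 0.06 SE (limma adjusted p = 0.0474, and 0.113 on blocking by replicate number). Akt2 was at 5.34, 5.36, 7.51 and 7.70 FPKM in wild type and at 7.18, 7.89, 9.63 and 9.57 FPKM in libraries labelled Cavb3 KO. Angptl4 (-0.63) and Foxo1 (-0.45), the latter a transcription factor that drives Angpt2 and is restrained by TIE2 signalling, did not pass (limma adjusted p with the set term 0.172 and 0.106). Apelin partners (10 of 14 tested, median -0.11) held Nos3, the endothelial nitric oxide synthase, at -0.59 (limma adjusted p = 0.0536 with the set term), β-arrestin 1 (Arrb1) at -0.42 and the G protein genes Gnaq and Gnai1 at -0.42 and -0.26. PDGF partners (6 of 8 tested) had a median of -0.06, with Pdgfd at -0.64, the proteoglycan Hspg2 at -0.33 and the co-receptor Nrp1 at -0.14. CXCR4 partners (5 of 7 tested) had a median of -0.21, with Gnai2 at -0.21 and Mif at 0.19. CD34 family genes and ligands (5 of 6 tested) had a median of -0.27, with Pecam1 at -0.30 and Crkl at 0.17. UNC5B partners (5 of 12 tested) had a median of 0.21, which was 0.71 in replicates 1 and 2 and -0.20 in replicates 3 and 4, with the netrin receptor Neo1 at 0.52 and the death-associated kinase Dapk1 at 0.44. In these last 5 lists 0 genes passed with or without the set term.

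**Figure D4:**
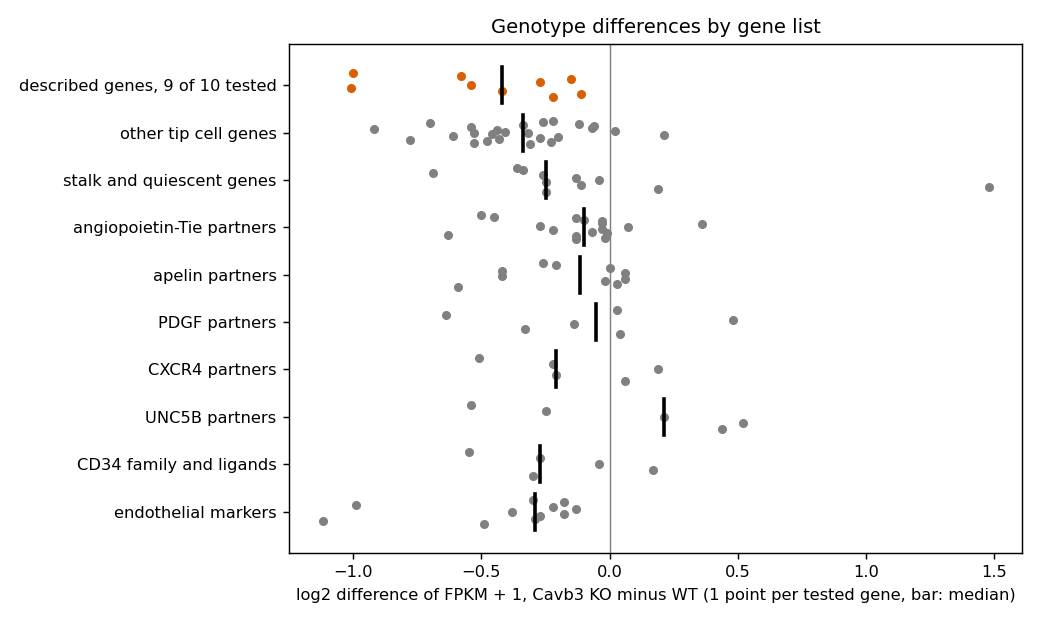
Log2 difference of FPKM + 1 between libraries labelled Cavb3 KO and wild type for each tested gene of the described genes and of the lists, 1 point per gene, with the median as a bar. The bars run from -0.42 for the described genes and -0.34 for other tip cell genes to 0.21 for UNC5B partners.

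The genes with the most similar profiles were found among the tested genes with a mean of at least 5 FPKM, by the root mean square difference between log2(FPKM + 1) profiles over the 8 libraries, each centred on its own mean. Apln, whose own values varied by 0.912 around their mean on this scale, was followed most closely by Cd93, an endothelial surface receptor (0.132), by Tgfb2, a TGF-β ligand (0.145), and by Cldn5, which encodes claudin-5 (0.161). Pdgfb was followed by Egfl7, an endothelial secreted protein, at 0.105 against its own 1.06, then by Edn1 (0.283) and Foxf1 (0.309). Angpt2 was followed by Mgst1 (0.0528 against 0.416), Arap3 (0.0723) and Pdgfd (0.0756). The profiles of Tie1 were nearest to Csrp1, Oaz2 and Tns1 (0.0394 to 0.0613 against 0.176). For Esm1, the nearest were Gm11216, Gm37565 and Gdf15, at 0.350 to 0.393 against 0.991. Cxcr4 lay nearest to Cplx2, Plpp1 and Gdpd1 (0.130 to 0.157 against 0.335) and Unc5b to Gnai2, Trim3 and Eif4g3 (0.0359 to 0.0400 against 0.245). Tek and Cd34 varied by only 0.0980 and 0.117 around their means, and their nearest were Pcnx, Nfe2l1 and Scamp1 (0.0283 to 0.0342) and Flt1, Emc8 and Tmed3 (0.0410 to 0.0515).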

How the data were processed

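Per the labels' protocols, an NEBNext Ultra kit was used for the libraries. Per the submitters' processing notes, the aligner was HISAT2 2.0.5. How reads were counted, and on which build, is not given in the sources used here. FPKM of 54532 Ensembl genes were deposited by the authors, in 1 table for each library. The values bear this unit out: times exon length in GENCODE M21 (GRCm38), they were whole multiples of 1 library constant. This held within 0.01 for 96.5% to 96.7% of values above 0. The constant gave each library's scaling depth and each gene's reads. GENCODE M21 also gave the coordinates.

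Groups and replicate numbers came from the titles. The test was limma 3.58.1 (R 4.3.3) with robust moderation and trend, run on log2(FPKM + 1) of the 11864 genes that reached 1 FPKM in 4 or more libraries, with Benjamini-Hochberg adjustment over all of them and a threshold of 0.05. Fold changes on this scale understate those of low genes. The members, lists and replicate sets (1 and 2, 3 and 4) were chosen with earlier results of these data known. Named genes were the members, their direct ligands, receptors and paralogs, called list genes, up to 4 list genes of largest difference and the 3 nearest profiles per member. Deviations from the group means correlated between same-numbered libraries (0.41, 0.75, 0.40 and 0.52 across genes), over the criterion of 0.1 in each pair. These deviations include the difference between the replicate sets, and differently numbered libraries were not compared. The check therefore cannot show whether the numbers pair the libraries within a set. The planned comparison had neither a set term nor a block. Alternatives were these terms, each replicate set alone, leaving out each library, array weights, limma-voom on recovered reads, no trend, a pseudocount of 0.1, a filter at 5 FPKM or none, and quantile or median scaling. Fits were tested on simulated data with independent noise between libraries, which cannot show how the calls depend on single libraries. Other steps ran in Python 3.11.15 with pandas 2.3.3, numpy 2.4.6, matplotlib 3.10.9 and scipy 1.17.1. Replicates may share a source, in which case p-values measure the spread between these libraries.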

Additional observations from a re-analysis of the deposited data

Results flagged for a closer look

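Pdgfb in wild type replicate 2 was at 136 FPKM, apart from the other wild type libraries at 62.4, 62.7 and 71.6 FPKM by more than Dixon's 95% limit for 4 values. It was the single such value in 20 checks of a gene in a group, of which chance flags about 1 in 20.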

How the results depend on the processing

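In place of 0 called genes between the labels, the replicate set as a term gave 75 and replicates 3 and 4 alone gave 6, none of the latter a member. The other alternatives, the replicate block among them, gave 0. Among genes of the partner lists the calls went from 0 to 2 with the set term (Igfbp3 and Akt2) and to 1 in replicates 3 and 4 alone (Hey1), and the marker lists held 2 more with the set term (Esam and Clic6). The 75 calls with the set term became 193 at a filter of 5 FPKM, 948 with array weights, 262 with limma-voom, 1 without trend and 0 without a filter, and 0 to 322 when a library was left out. The 0 came on leaving out replicate 1 or 2 labelled Cavb3 KO or any of the wild type libraries, and the 322 without replicate 3 labelled Cavb3 KO. These settings of the fit with the set term were chosen after seeing the data. Angpt2 passed in 7 of its 16 alternatives there, Tie1 in 4, Apln in 2 and Unc5b in 1. Quantile normalization gave Angpt2 -0.48 (limma adjusted p = 0.0627), and its p over the alternatives ran from 0.0112 to 0.213. The set difference called 5419 genes, 3530 at a filter of 5 FPKM and 3901 to 5518 with a library left out. Pdgfb passed there in 12 of 16 alternatives and Cxcr4 in 1. The interaction called 1 (Gm21887), 2 with a pseudocount of 0.1, array weights or limma-voom, and 1 to 58 with a library left out, the 58 without wild type replicate 2. Of the members' genotype differences, 1 changed sign: Esm1, to 0.27 in replicates 3 and 4 alone. Set differences that changed sign were those of Tek (-0.05 to 0.05 with a library left out, below 0 without wild type replicate 2 or 3 or replicate 2 or 3 labelled Cavb3 KO) and Cd34 (0.00 with quantile normalization). Interactions did so with a library left out for Apln (-0.99 to 0.25) and Angpt2 (-0.28 to 0.07), both above 0 without replicate 4 labelled Cavb3 KO, for Tek (-0.09 to 0.14), for Cd34 (-0.01 to 0.24, and -0.02 with quantile normalization) and for Unc5b (-0.01 to 0.26). The cause was not tested. No member interaction passed in any alternative. The measurement of Aplnr and Angpt1 was limited by few reads, 11 or fewer per library for each.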
